A study of Mus musculus with 20 samples.

Results

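Tumors injected with the p19Arf vector were compared with tumors injected with the eGFP control vector, by the treatment given for each array in the labels. The comparison holds 10 of the 20 arrays of the series, 5 in each group, and 19938 genes. LLC-1 is a mouse line derived from Lewis lung carcinoma, and the tumors were implants of it in C57Bl/6 mice. The eGFP group had received AdeGFP, an adenovector carrying enhanced green fluorescent protein, and the p19Arf group an adenovector carrying p19Arf. Both groups had the same schedule of 5 injections into the tumor, 48 h apart, each of 25 µl and at a load of 8 (log10 of a number of virus whose unit the labels leave out), so the controls had also been exposed to adenovirus. The other 10 arrays came from tumors given the IFNbeta vector, alone or with p19Arf, and served here as a second comparison for p19Arf. The sources used here do not give the promoter of the vectors, the age and sex of the mice or the time from the last injection to harvest. Neither is it said whether the arrays of a group came from separate animals, so the p-values measure the spread between these arrays, which may in part be technical.

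p19Arf is the second protein of the Cdkn2a locus, read in an alternative frame from the one that encodes p16Ink4a. It sits mainly in the nucleolus, binds the ubiquitin ligase Mdm2 and so lets p53 accumulate, and p53 then activates genes of cell cycle arrest, DNA repair and apoptosis. Mdm2 is itself a p53 target, which closes a negative feedback loop, and Arf also slows ribosomal RNA processing without p53.

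The 2 vector genes come first. Values are log2 expression, and array values are given in the order of replicates 1 to 5. Cdkn2a read 7.38, 7.42, 7.54, 7.36 and 7.47 on the eGFP arrays and 7.35, 7.42, 7.70, 7.81 and 7.61 on the p19Arf arrays. Replicates 3, 4 and 5 of the p19Arf group lay above all eGFP arrays, and replicate 1 lay below all of them. The difference was 0.14 (SE 0.10, exact 2-sided permutation p = 0.159, where 5 arrays against 5 allow no p below 0.00794), and it was 0.09 without p19Arf replicate 4 and 0.04 with the array spread, described below, as a covariate. The sources used here do not say which part of the locus the probe set covers or whether it reads the vector's insert, so this value does not check the labels. Ifnb1, which neither vector of this comparison carried, differed by -0.11 (SE 0.13, exact permutation p = 0.437), with values from 5.61 to 6.17 on the p19Arf arrays and from 5.96 to 6.25 on the eGFP arrays. Over the alternative settings it ran from -0.19 (array spread as a covariate) to -0.01 (without p19Arf replicate 2), and it was -0.07 without eGFP replicate 1. Trp53 and Cdkn1a were not analysed here.

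No gene passed an adjusted p under 0.05 in the limma test with Benjamini-Hochberg adjustment (0 of 19938, 0%), and the smallest adjusted p was 0.661. At an unadjusted p under 0.05 there were 1445 genes (7.25%), of which 567 had a higher mean in the p19Arf tumors (2.84%) and 878 a lower one (4.4%). All differences described below are therefore values of genes that did not pass. The differences were small: 98.98% of genes differed by less than 0.5, the median standard error was 0.117 and the median half-width of the 95% confidence interval was 0.24. For a typical gene, a difference within that interval was not detectable with 5 arrays a group. In 50 genes (0.251%) all p19Arf arrays lay above all eGFP arrays and in 88 (0.441%) all lay below. Only 9 genes differed by more than 1, a 2-fold difference. The 7 higher ones were 5730408K05Rik at 1.41, Rnu3a at 1.40, Snord118 at 1.24, Snora33 at 1.16, Rnu12 at 1.11, Myh4 at 1.02 and Scarna13 at 1.01. Of these names, 5 belong to small nuclear, nucleolar or Cajal body RNAs, and Myh4 is a muscle myosin. The 2 lower ones were Cpa3 at -1.07 and Ly96, the MD-2 partner of the endotoxin receptor, at -1.10. Ly96 read 7.38, 9.45, 8.03, 8.96 and 8.39 in the eGFP group and 7.62, 7.17, 7.65, 6.72 and 7.54 in the p19Arf group, so eGFP replicate 1 lay within the p19Arf range. These names other than Cpa3 were chosen after their values were seen.

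The sign of the difference followed the level of the gene. Among the 25% of genes with the lowest means, 79.9% had a higher mean in the p19Arf tumors and the median difference was 0.09. Among the 25% with the highest means, 25.4% did, with a median of -0.11. Over all genes 54.4% had a higher and 45.6% a lower mean, with a median of 0.02. Of the genes at an unadjusted p under 0.05, 322 of the 567 higher ones were in the lowest 25% and 500 of the 878 lower ones in the highest 25%.

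**Figure D1:**
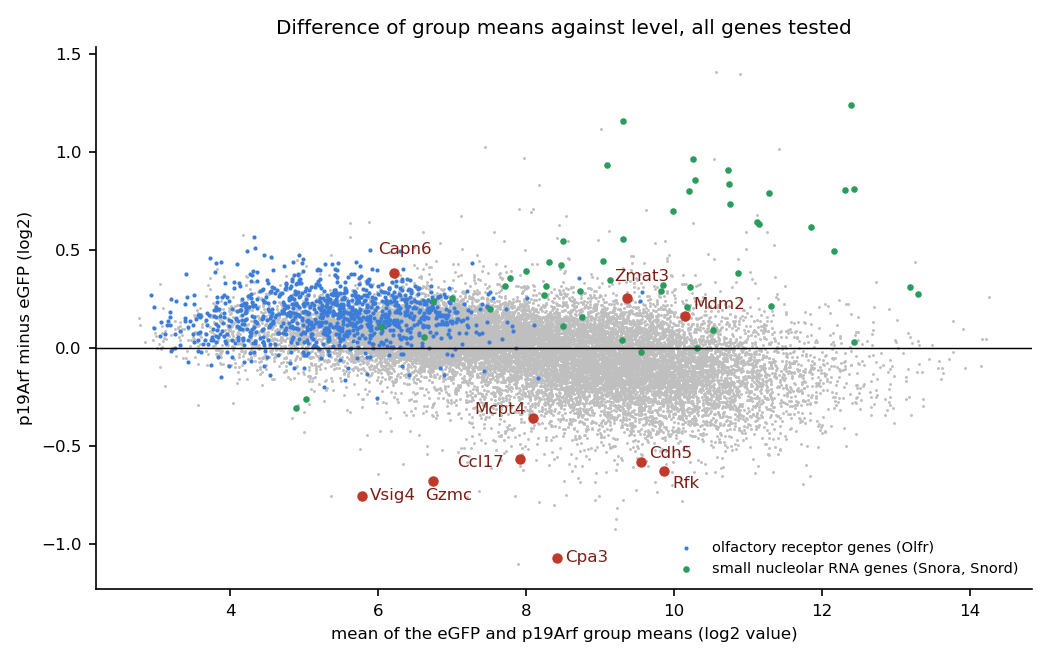
Difference of group means (p19Arf minus eGFP, log2, vertical axis) against the mean of both groups (log2, horizontal axis) for 19938 genes. Grey points tilt from above 0 at low levels to below 0 at high levels; blue points are olfactory receptor genes, green points small nucleolar RNA genes, and red points 10 named genes, with Cpa3 at -1.07.

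Array spread moved with this tilt. The standard deviation of all log2 values on an array was 2.06, 2.13, 2.12, 2.13 and 2.10 in the eGFP group and 2.12, 2.04, 2.08, 1.999 and 2.06 in the p19Arf group. It was lowest on p19Arf replicates 2 and 4, and the groups overlapped through p19Arf replicate 1 and eGFP replicate 1 (exact permutation p = 0.0952). Array medians were 7.49 to 7.61 in the series as a whole. With the array spread as a covariate, 894 genes were at an unadjusted p under 0.05, 504 higher and 390 lower, so the majority of lower genes was not kept. Without p19Arf replicates 2 and 4, an alternative chosen after seeing the data, there were 342, 159 higher and 183 lower. Of 104 named genes, 46 had a difference smaller by over 1.5 times with the covariate and 41 without those 2 arrays. For most of those genes the values are given below, as the spread-adjusted difference and the difference without replicates 2 and 4. The part of the array spread in the gene differences was otherwise not tested.

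**Figure D2:**
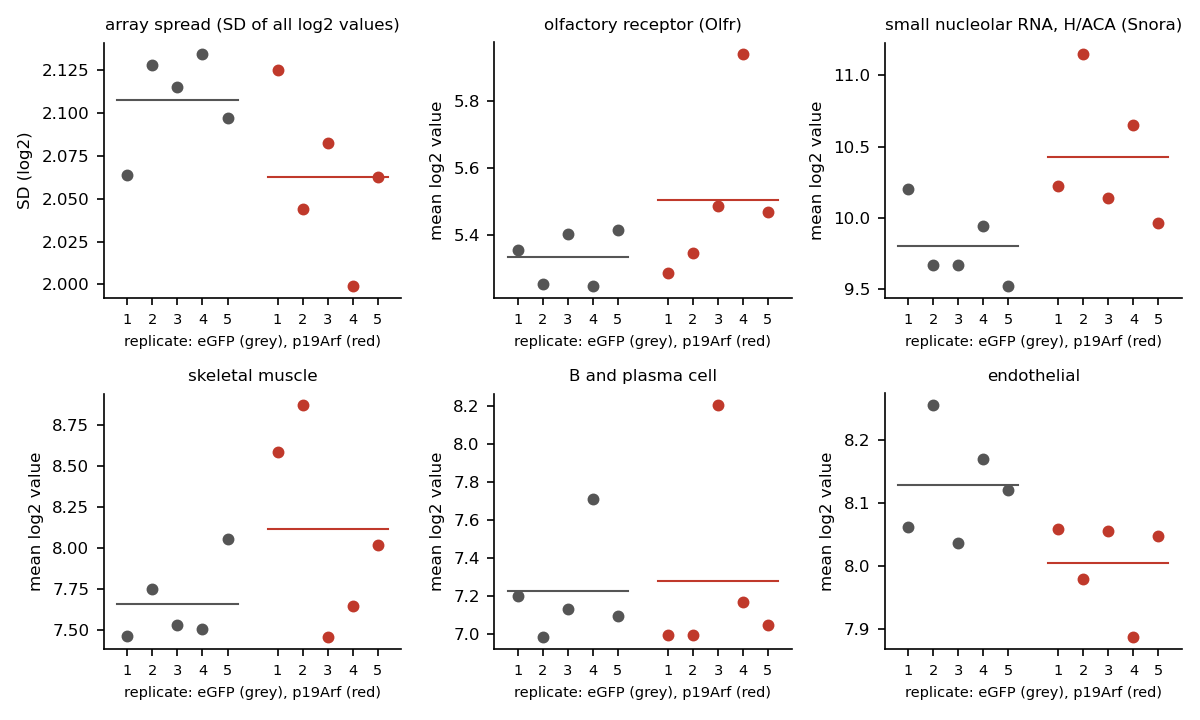
One value per array for 6 measures: the standard deviation of all log2 values, and the mean log2 value of 5 gene groups (olfactory receptors, H/ACA small nucleolar RNAs, skeletal muscle, B and plasma cells, endothelium). Grey points are eGFP replicates 1 to 5, red points p19Arf replicates 1 to 5, and lines are group means; p19Arf replicate 4 has the lowest spread (1.999) and the highest olfactory receptor mean (5.94), and p19Arf replicate 3 the highest B and plasma cell mean (8.21).

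In the Arf, Mdm2 and p53 core, 7 of 16 measured genes had a higher and 9 a lower mean, none at an unadjusted p under 0.05, with a median of -0.01 (0.05 after quantile normalization). Mdm2 read 10.08, 10.00, 10.03, 10.23 and 10.00 on the eGFP arrays and 10.50, 10.45, 10.31, 9.94 and 9.98 on the p19Arf arrays. The p19Arf arrays thus lay on both sides, replicates 1 to 3 above every eGFP array and replicates 4 and 5 below every one. Its difference was 0.17 (SE 0.11, unadjusted p = 0.134), 0.10 without p19Arf replicate 1 and 0.25 after quantile normalization. Mdm4, the Mdm2 relative that also restrains p53, differed by 0.12 and Myc, an activator of Arf transcription, by 0.04. The members of smallest p were Trp73, a p53 family transcription factor, at 0.18 (SE 0.10; spread-adjusted 0.05), and Bmi1, the Polycomb protein that represses the Cdkn2a locus. Bmi1 differed by -0.28 (SE 0.18): p19Arf replicates 2 and 4 read 9.43 and 9.45, and the other p19Arf arrays 10.22 to 10.53, within the eGFP range of 9.95 to 10.56. Its difference was -0.05 spread-adjusted, -0.08 with array weights, -0.14 without p19Arf replicate 2, -0.15 without replicate 4 and 0.08 without both.

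Among p53 targets of arrest and repair 9 of 19 had a higher and 10 a lower mean, with a median of -0.03 that was 0.06 spread-adjusted. Zmat3, an RNA-binding p53 target, and Ercc5, an excision repair nuclease, were at an unadjusted p under 0.05. Zmat3 read 9.44, 9.24, 8.97, 9.37 and 9.18 in the eGFP group and 9.45, 9.90, 9.48, 9.32 and 9.31 in the p19Arf group. Its 3 highest arrays were p19Arf arrays, while replicates 4 and 5 lay within the eGFP range. The difference was 0.26 (SE 0.11, unadjusted p = 0.0258) and 0.15 without p19Arf replicate 2. Ercc5 differed by 0.21 (SE 0.10), by 0.11 without p19Arf replicate 2 and by 0.13 with array weights. Ccng1, a strong p53 target in many cell types that was chosen after its values were seen, differed by -0.08 (SE 0.16).

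Among p53 targets of cell death 11 of 16 had a higher and 5 a lower mean, with a median of 0.11 that was 0.02 without p19Arf replicate 2 and 0.05 without replicates 2 and 4. Siva1, an apoptosis adaptor, read 8.68, 8.42, 8.32, 8.35 and 8.33 in the eGFP group and 8.60, 9.03, 8.79, 8.60 and 8.60 in the p19Arf group, where all arrays exceeded every eGFP array but replicate 1. Its difference was 0.30 (SE 0.12) on the probe set used and 0.16 on its other probe set. Aen, a p53-induced nuclease, differed by 0.21 (SE 0.10), by 0.12 without p19Arf replicate 2, by 0.11 without replicates 2 and 4 and by 0.13 with array weights. Trp53i11, a p53-induced membrane protein, lay the other way at -0.73 (SE 0.22), with 9.21, 10.68, 9.99, 10.62 and 10.22 in the eGFP group and 9.50, 8.96, 9.50, 9.54 and 9.56 in the p19Arf group. The p19Arf values were lower than 4 of the eGFP arrays and straddled eGFP replicate 1. The BH3-only genes Bbc3 (Puma) and Pmaip1 (Noxa) and the death receptor Fas, chosen after their values were seen, differed by 0.17 (SE 0.13), 0.13 (SE 0.09) and 0.16 (SE 0.15).

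Of 23 genes of the nucleolus and ribosome biogenesis, where Arf resides, 6 had a higher and 17 a lower mean, with a median of -0.06 that was 0.01 after quantile normalization and 0.06 spread-adjusted. Ttf1, the terminator of ribosomal gene transcription, differed by 0.24 (SE 0.08). Nolc1, a nucleolar phosphoprotein, differed by -0.38 (SE 0.14; spread-adjusted -0.18, without replicates 2 and 4 -0.25), and Polr1b, a core subunit of RNA polymerase I, by -0.23 (SE 0.11; -0.15 after quantile normalization). These were the 3 members at an unadjusted p under 0.05, 1 higher and 2 lower, against 2.84% and 4.4% of all genes. Among the 25% of genes with the highest means, 500 of 4985 were lower at that threshold and 25.4% had a higher mean. Nothing about nucleolar genes is read from these counts. Ribosomal protein genes were near balance, with 19 of 39 large-subunit and 18 of 32 small-subunit genes higher.

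Cell cycle and replication genes had lower means in 26 of 33 and a median of -0.10, which was 0.09 spread-adjusted. Rrm2, a subunit of ribonucleotide reductase, read 10.12, 10.55, 10.42, 10.38 and 10.21 on the eGFP arrays against 10.34, 9.94, 10.00, 9.82 and 9.71 on the p19Arf arrays. Only p19Arf replicate 1 reached the eGFP range, and the difference was -0.37 (SE 0.17; spread-adjusted -0.11). Cdc6, which loads the replicative helicase, lay the other way at 0.31 (SE 0.10). In the death receptor, caspase and Bcl2 family 10 of 26 had a higher and 16 a lower mean, with a median of -0.07 that was 0.01 spread-adjusted. The initiator caspase Casp8 differed by -0.23 (SE 0.09; -0.15 without p19Arf replicate 4, -0.12 after quantile normalization). The anti-apoptotic Bcl2 differed by -0.22 (SE 0.10; -0.12 spread-adjusted or quantile-normalized). The pro-apoptotic effector Bak1 differed by -0.30 (SE 0.14; spread-adjusted -0.13, without replicates 2 and 4 -0.17, with array weights -0.19). All its p19Arf arrays (9.56 to 10.12) lay below all eGFP arrays (10.12 to 10.29), with p19Arf replicate 1 and eGFP replicate 4 nearly level.

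**Figure D3:**
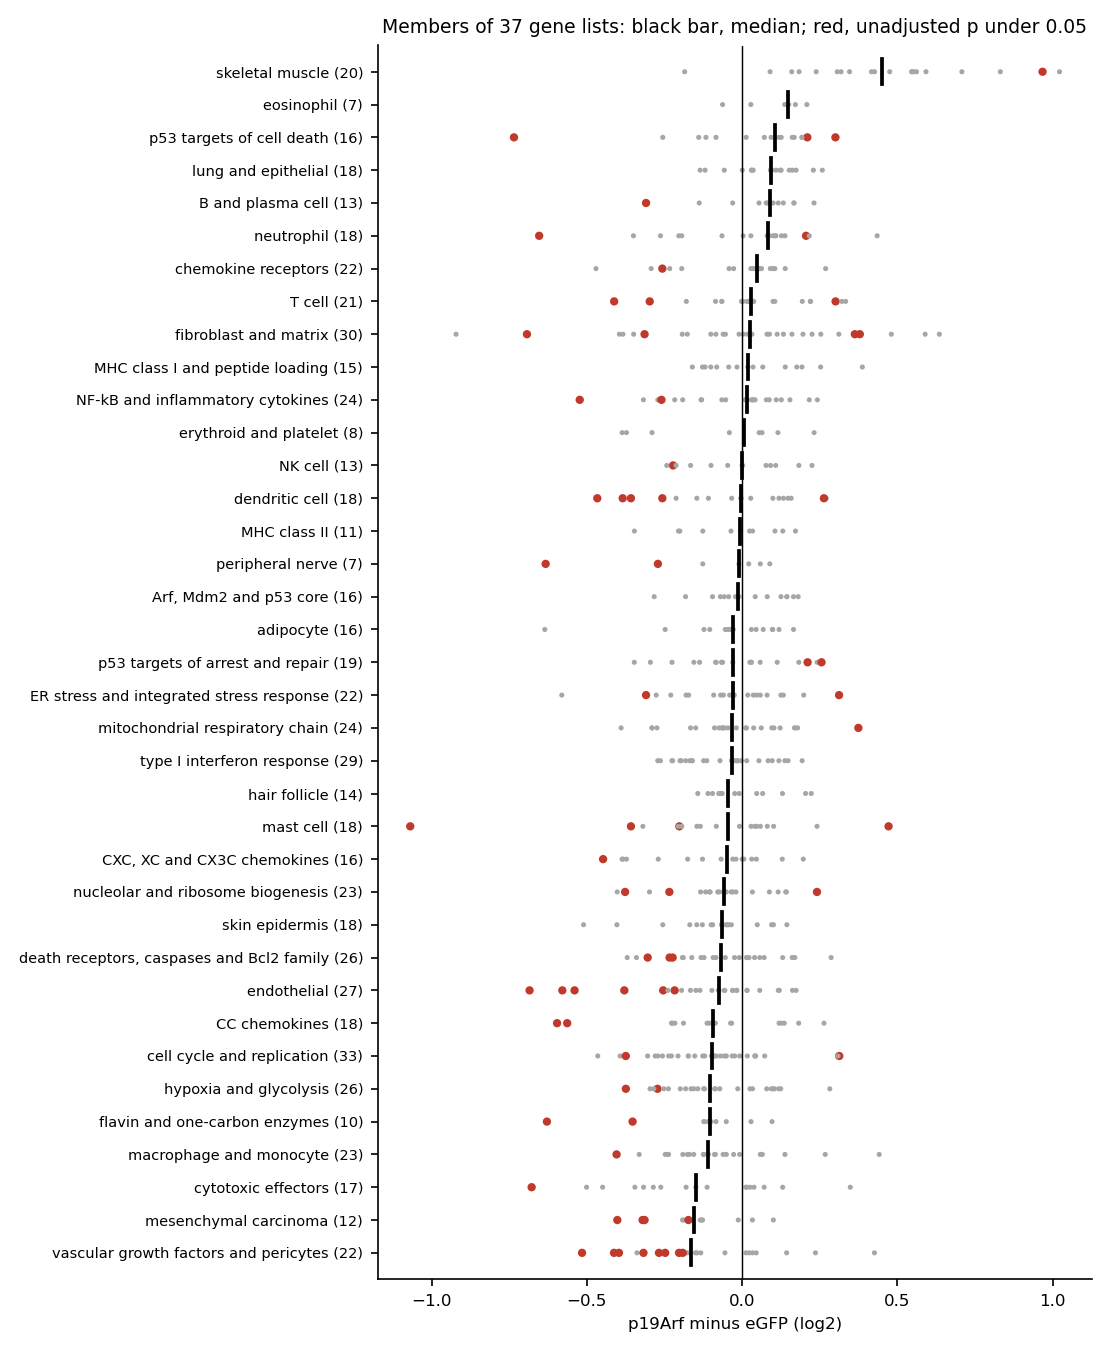
Difference of group means (p19Arf minus eGFP, log2) of each measured member of 37 gene lists, ordered by median; the number of measured members follows each name. Black bars are list medians, from -0.16 for vascular growth factors and pericytes to 0.45 for skeletal muscle, and red points are members at an unadjusted p under 0.05, none of which passed adjustment.

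Over all lists, 665 genes were measured, of which 15 (2.26%) were higher and 51 (7.67%) lower at an unadjusted p under 0.05, against 2.84% and 4.4% of all genes. Their median difference was -0.03. A list's share has to be read against the level of its genes, since highly expressed genes tilted to lower means throughout.

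Cpa3, the carboxypeptidase stored in mast cell granules, had the smallest unadjusted p among the genes named by the rule in the methods. Mast cells are tissue-resident cells that release proteases, histamine and cytokines, and they develop under Kit and the transcription factor Gata2. The 250 bases upstream of the transcription start of Cpa3 (GRCm38.p6, RefSeq, chr3:20242182-20242431, minus strand) and of Mcpt4, a chymase of connective tissue mast cells (chr14:56062311-56062560, minus strand), are shown because both granule protease genes had lower means. Capitals mark GATAA, the core of sites that GATA factors bind, searched on both strands.
Cpa3: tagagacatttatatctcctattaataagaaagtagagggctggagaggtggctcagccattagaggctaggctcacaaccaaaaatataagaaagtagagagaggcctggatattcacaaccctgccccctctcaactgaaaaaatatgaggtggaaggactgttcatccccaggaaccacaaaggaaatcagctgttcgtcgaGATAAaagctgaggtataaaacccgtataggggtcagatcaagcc
Mcpt4: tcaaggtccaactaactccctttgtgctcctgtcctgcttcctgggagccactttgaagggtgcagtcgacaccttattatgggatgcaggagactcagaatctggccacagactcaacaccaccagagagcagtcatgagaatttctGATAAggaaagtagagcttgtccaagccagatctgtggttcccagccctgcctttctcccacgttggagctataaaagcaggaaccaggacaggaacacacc
Each window held 1 match on the strand shown, starting at base -45 from the start site in Cpa3 and at base -102 in Mcpt4. Of 32851 windows of this length in the table, 22.6% held the motif or its reverse complement, so the matches are a description of these letters only.

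Cpa3 read 8.43, 9.47, 8.81, 8.99 and 9.06 on the eGFP arrays and 7.98, 7.42, 8.08, 7.52 and 8.40 on the p19Arf arrays, with all p19Arf arrays below all eGFP arrays. The closest pair, p19Arf replicate 5 and eGFP replicate 1, was separated by less than the spread within either group. The group difference was -1.07 (SE 0.26, 95% confidence interval -1.61 to -0.53, unadjusted p = 0.000473, adjusted p = 0.661). Mcpt4 read 8.12, 8.53, 8.07, 8.17 and 8.50 against 7.55, 7.80, 7.87, 8.04 and 8.35, so p19Arf replicates 1 to 4 lay below all eGFP arrays and replicate 5 among them. Its difference was -0.36 (SE 0.16), and that of Kit, the stem cell factor receptor, -0.20 (SE 0.09; -0.13 without eGFP replicate 2). Mcpt2, a mucosal mast cell protease, lay the other way at 0.47 (SE 0.19; spread-adjusted and without replicates 2 and 4 0.27), at values of 4.86 to 5.95. Of the 18 members of the list 8 had a higher and 10 a lower mean, with a median of -0.05 (-0.02 spread-adjusted and -0.10 to -0.02 with 1 array left out). Its mean level was 7.15 to 7.32 on the eGFP arrays and 7.03 to 7.22 on the p19Arf arrays. In RNA from whole tumors, fewer cells of a type and less RNA per cell cannot be told apart.

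Endothelial genes had lower means in 20 of 27, with 6 at an unadjusted p under 0.05, all lower, and a median of -0.07 (-0.02 with array weights, -0.09 to -0.04 with 1 array left out). Of all genes 4.4% were lower at that threshold, and 500 of the 4985 in the highest 25% by level. Cdh5, the cadherin of endothelial junctions, read 9.55, 10.08, 9.71, 10.14 and 9.75 on the eGFP arrays and 9.67, 8.92, 9.32, 8.93 and 9.49 on the p19Arf arrays. All p19Arf arrays but replicate 1 lay below all eGFP arrays. The difference was -0.58 (SE 0.16, unadjusted p = 0.00152), and -0.35 both spread-adjusted and without replicates 2 and 4. Lyve1, a hyaluronan receptor of lymphatic endothelium that some macrophages also carry, differed by -0.68 (SE 0.25; spread-adjusted -0.41, with array weights -0.39, without replicates 2 and 4 -0.30). Cd34, a sialomucin of vascular and progenitor cells, differed by -0.38 (SE 0.16; spread-adjusted -0.12, without replicates 2 and 4 -0.22). The receptor Flt1 differed by -0.22 (SE 0.09) and the TGF-beta co-receptor Eng by -0.25 (SE 0.12). The pan-endothelial Pecam1 and Kdr, chosen after their values were seen, were not at that threshold, at -0.15 (SE 0.11) and -0.10 (SE 0.11). Endothelial means ran from 8.04 to 8.26 on the eGFP arrays and from 7.89 to 8.06 on the p19Arf arrays, and p19Arf replicates 4 and 2 were lowest.

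Emcn, a sialomucin of veins and capillaries, is shown by the 250 bases upstream of its start (GRCm38.p6, RefSeq, chr3:137340828-137341077, plus strand) because it had a lower mean alongside Cdh5. Capitals mark AGGAAG, a core bound by ETS factors, or its reverse complement CTTCCT. ETS factors such as Erg are known regulators of endothelial genes.
Emcn: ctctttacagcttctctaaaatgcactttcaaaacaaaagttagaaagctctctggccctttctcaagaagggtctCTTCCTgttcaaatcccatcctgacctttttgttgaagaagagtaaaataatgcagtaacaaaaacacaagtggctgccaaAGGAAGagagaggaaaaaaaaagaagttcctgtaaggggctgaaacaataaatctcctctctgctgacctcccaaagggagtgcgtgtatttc
The window held 2 matches, 1 on each strand, at bases -174 and -93 from the start site, and 29.5% of all windows held this motif. Emcn read 8.18, 8.90, 8.24, 8.80 and 8.45 against 8.47, 7.89, 7.94, 7.41 and 8.16 in the p19Arf group. As with Cdh5, p19Arf replicate 1 was the array within the eGFP range and replicate 4 the lowest or nearly so. The difference of Emcn was -0.54 (SE 0.18), and -0.32 both spread-adjusted and without replicates 2 and 4. Erg itself, chosen after its values were seen, differed by -0.17 (SE 0.09).

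Vascular growth factors and pericyte genes had the lowest median of the 37 lists, -0.16 (-0.10 spread-adjusted and without replicates 2 and 4). Lower means were seen in 15 of 22, and 8 were at an unadjusted p under 0.05, all lower, against 4.4% of all genes. Vegfb, a ligand of Flt1, read 10.22, 10.45, 10.25, 10.11 and 10.32 in the eGFP group and 9.98, 9.98, 10.11, 9.95 and 10.10 in the p19Arf group. All p19Arf arrays were below all eGFP arrays, with replicate 3 nearly level with eGFP replicate 4. The difference was -0.25 (SE 0.09, unadjusted p = 0.00821). Apln, the apelin peptide of sprouting vessels, differed by -0.52 (SE 0.20; spread-adjusted -0.28), Pgf, the placental growth factor, by -0.41 (SE 0.17; -0.26 with array weights), and Mcam, an adhesion molecule of vessel walls, by -0.27 (SE 0.10; -0.16 with array weights, -0.14 without replicates 2 and 4). The other 4 were Angpt2 at -0.40, Rgs5 at -0.32, Esm1 at -0.20 and Dll4 at -0.19, of which Rgs5 marks pericytes and Esm1 and Dll4 sprouting tip cells. Vegfa, the main hypoxia-driven ligand, differed by 0.03 (SE 0.16) and was chosen after its value was seen. Hypoxia and glycolysis genes had lower means in 17 of 26, with a median of -0.10 (0.00 spread-adjusted). Ndrg1 differed by -0.37 (SE 0.14) and the glucose transporter Slc2a1 by -0.27 (SE 0.12; spread-adjusted -0.16).

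**Figure D4:**
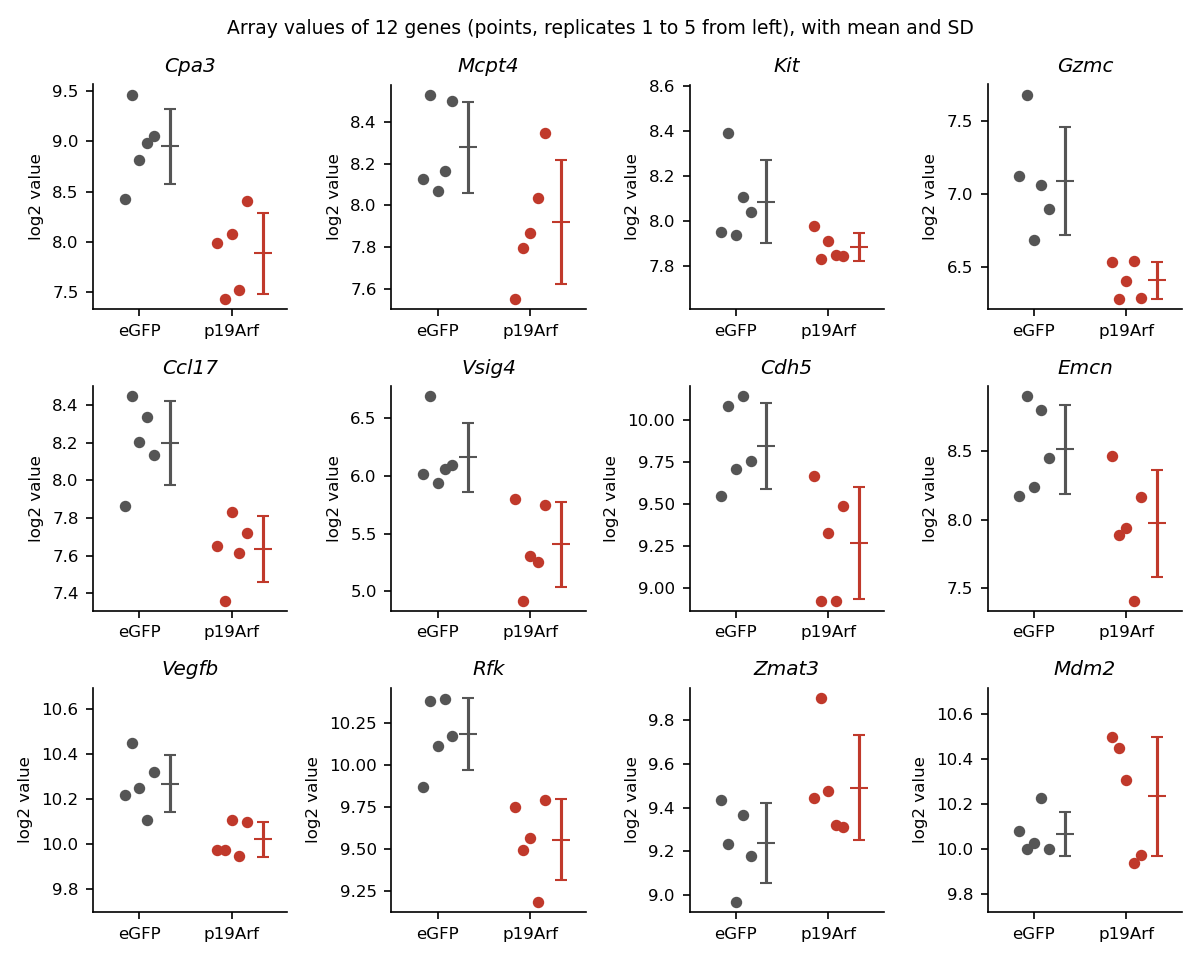
Log2 values of 12 genes on each array, eGFP grey and p19Arf red, replicates 1 to 5 from left to right, with the group mean and SD (n = 5) beside them. Cpa3, Gzmc, Ccl17, Vsig4, Vegfb and Rfk show no overlap between groups, while the p19Arf values of Mdm2 fall on both sides of the eGFP values.

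Chemokines draw leukocytes into tissue. CC chemokines had lower means in 13 of 18, with a median of -0.09 that was -0.01 with array weights, -0.04 spread-adjusted and -0.05 without eGFP replicate 1, and the other chemokines in 11 of 16, with a median of -0.05 that was 0.01 with array weights. Ccl17, a ligand of Ccr4 made by dendritic cells and macrophages, read 7.86, 8.45, 8.21, 8.34 and 8.14 against 7.65, 7.36, 7.83, 7.61 and 7.72 in the p19Arf group, with no overlap. Its difference was -0.56 (SE 0.20). Ccl12, a monocyte attractant, differed by -0.60 (SE 0.22; spread-adjusted -0.33) with overlapping groups, 7.54 to 8.49 on p19Arf arrays and 8.08 to 9.30 on eGFP arrays. Cxcl10, an interferon-induced ligand of Cxcr3, differed by -0.45 (SE 0.18; -0.29 with array weights). Of 22 chemokine receptors 15 had a higher mean, with a median of 0.05 (0.00 after quantile normalization). Ccr7, the lymph node homing receptor, lay lower at -0.26 (SE 0.11; -0.15 without eGFP replicate 1, -0.11 with array weights).

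Genes of cytotoxic lymphocytes had lower means in 10 of 17 and a median of -0.15, which was -0.07 spread-adjusted, -0.05 with array weights and -0.23 to -0.07 with 1 array left out. Gzmc, a granzyme, read 7.12, 7.68, 6.69, 7.06 and 6.90 on the eGFP arrays and 6.54, 6.28, 6.41, 6.54 and 6.29 on the p19Arf arrays. The groups did not overlap, and the p19Arf arrays were the tighter ones. Its difference was -0.68 (SE 0.20, unadjusted p = 0.00278). Granzymes lie in a gene cluster with similar sequences, so cross-reading between Gzmc and its relatives cannot be told apart here. The neighbours Gzmd, Gzmf and Gzmg differed by -0.35, -0.45 and -0.50 and the widely used Gzmb and Prf1 by -0.32 and -0.29, none at that threshold, and these were chosen after their values were seen.

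Lymphocyte markers showed no common direction. Of 21 T cell genes 14 had a higher mean, with a median of 0.03 that was -0.01 after quantile normalization. Cd4, the helper co-receptor, differed by -0.30 (SE 0.10; -0.19 with array weights or without replicates 2 and 4), Il2ra, the interleukin 2 receptor of activated and regulatory T cells, by -0.41 (SE 0.17), and Cd3d, a subunit of the T cell receptor complex, by 0.30 (SE 0.12). NK cell genes had a median of 0.00, with 6 of 13 higher, and Ncr1, the receptor NKp46, differed by -0.22 (SE 0.10; spread-adjusted -0.14). B and plasma cell genes had a higher mean in 10 of 13, with a median of 0.09 that was -0.17 without p19Arf replicate 3 and 0.57 with array weights. Their mean level was 8.21 on p19Arf replicate 3 and 6.99 to 7.17 on the other p19Arf arrays, and 7.71 on eGFP replicate 4 against 6.98 to 7.20 on the other eGFP arrays. The 1 member at an unadjusted p under 0.05 was lower: Xbp1, a factor of secretory cells in general, at -0.31 (SE 0.14; spread-adjusted -0.14, without replicates 2 and 4 -0.19).

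Macrophage and monocyte genes had lower means in 18 of 23, with a median of -0.11 that was 0.00 spread-adjusted and -0.17 to -0.06 with 1 array left out. Cd68, a lysosomal protein of macrophages, differed by -0.40 (SE 0.19) by -0.18 spread-adjusted, by -0.20 without replicates 2 and 4 and by -0.23 without p19Arf replicate 2, where it read 10.26 against 10.94 to 11.37 on the other p19Arf arrays. Vsig4, a complement receptor of resident macrophages that is no member of the list, read 6.01, 6.69, 5.94, 6.06 and 6.09 in the eGFP group and 5.80, 4.92, 5.31, 5.25 and 5.75 in the p19Arf group, without overlap (difference -0.75, SE 0.20; -0.62 without eGFP replicate 2). Vsig4 lay at percentile 11.6 of all genes by level, in values without a detection call. Eosinophil genes had a higher mean in 6 of 7, none at an unadjusted p under 0.05, with a median of 0.15 that was 0.06 spread-adjusted. Neutrophil genes had a higher mean in 12 of 18. Ngp, a granule protein, differed by 0.21 (SE 0.09; 0.14 without replicates 2 and 4, 0.10 with array weights), and the gelatinase Mmp9 by -0.65 (SE 0.29; spread-adjusted -0.34, -0.38 with array weights, -0.17 without replicates 2 and 4, and -0.37 without p19Arf replicate 2, where it read 10.38). Dendritic cell genes were split, 8 of 18 higher and 10 lower. At an unadjusted p under 0.05, 4 were lower and 1 higher, against 4.4% and 2.84% of all genes. Cd209a, a lectin of monocyte-derived dendritic cells, differed by -0.47 (SE 0.17; spread-adjusted -0.27, without replicates 2 and 4 -0.21). Fscn1, the actin bundler of mature dendritic cells, differed by -0.38 (SE 0.15; spread-adjusted -0.18), and Tcf4, a factor of plasmacytoid dendritic cells, by -0.36 (SE 0.12; spread-adjusted -0.20, without replicates 2 and 4 -0.22). Irf8, a factor of conventional dendritic cells, was the higher one at 0.26 (SE 0.12).

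Type I interferon response genes had lower means in 21 of 29, none at an unadjusted p under 0.05, and a median of -0.03. That median was 0.01 after quantile normalization, -0.16 without p19Arf replicate 2 and 0.02 without p19Arf replicate 5. The members of smallest p were Irf9 at -0.18 (SE 0.10; -0.12 without p19Arf replicate 5) and Ifit1 at -0.26 (SE 0.16; -0.10 without replicates 2 and 4). Antigen presentation genes were near balance. Of 15 MHC class I genes 8 had a higher mean, with Psmb8, an immunoproteasome subunit, at 0.25 (SE 0.13) and Nlrc5, the class I transactivator, at 0.39 (SE 0.20; spread-adjusted 0.16, 0.20 without replicates 2 and 4, 0.23 without p19Arf replicate 2, and 0.21 as the mean of its probe sets). Of 11 class II genes 5 had a higher mean, with H2-DMa at -0.35 (SE 0.19; spread-adjusted -0.21, -0.23 without eGFP replicate 2) and Cd74 at -0.21 (SE 0.16; spread-adjusted -0.03, -0.13 after quantile normalization, -0.10 without p19Arf replicate 2, -0.05 without replicates 2 and 4). Among NF-kB and inflammatory cytokine genes 14 of 24 had a higher mean. Their median was 0.01, which was -0.04 spread-adjusted and -0.07 without replicates 2 and 4. Of all genes 4.4% were lower at an unadjusted p under 0.05. The 2 at an unadjusted p under 0.05 were lower, Nfkbib, an inhibitor of NF-kB, at -0.52 (SE 0.18; spread-adjusted -0.27) and Il1rn, the interleukin 1 receptor antagonist, at -0.26 (SE 0.12; -0.14 with array weights).

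The labelled tissue was checked against markers. Lung and epithelial genes averaged 6.95 to 7.19 on the eGFP arrays and 6.96 to 7.34 on the p19Arf arrays, with Scgb1a1, the club cell secretoglobin, at 3.89 and Epcam at 6.34 in the eGFP mean. Genes of mesenchymal carcinoma averaged 10.50 to 10.64 and 10.19 to 10.57, with Vim at 13.71 in the eGFP mean. The deposited values carry no detection call, so absence of a lung marker could not be shown. Of 18 lung and epithelial genes 15 had a higher mean, none at an unadjusted p under 0.05, with a median of 0.09 that was -0.03 spread-adjusted. Mesenchymal carcinoma genes had lower means in 10 of 12 and a median of -0.15, which was -0.03 spread-adjusted and -0.06 without replicates 2 and 4. The repressors of E-cadherin Snai2 and Zeb1 differed by -0.40 (SE 0.16; spread-adjusted -0.17, without replicates 2 and 4 -0.19) and -0.32 (SE 0.12; spread-adjusted -0.17, without replicates 2 and 4 -0.20), the chromatin protein Hmga2 by -0.17 (SE 0.07; -0.11 with array weights, -0.10 after quantile normalization) and fibronectin, Fn1, by -0.31 (SE 0.14; -0.15 both spread-adjusted and without replicates 2 and 4). Of 30 fibroblast and matrix genes 17 had a higher mean, with a median of 0.02 that was -0.01 after median centring. The actin-binding Tagln, at 0.38 (SE 0.14; 0.25 without p19Arf replicate 2), and Mfap4, of elastic microfibrils, at 0.36 (SE 0.14), were the higher members at an unadjusted p under 0.05. The proteoglycan Dcn, at -0.69 (SE 0.32; spread-adjusted -0.32, -0.26 without replicates 2 and 4, -0.35 without p19Arf replicate 2), was lower with Fn1.

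Skeletal muscle genes varied widely among the arrays of a group. They had a higher mean in 19 of 20, with a median of 0.45 (0.11 with array weights, 0.27 at the least with 1 array left out), and were highest on 2 p19Arf arrays. Their mean level was 8.59 and 8.87 on p19Arf replicates 1 and 2, 8.02 on p19Arf replicate 5 and 8.05 on eGFP replicate 5, and 7.45 to 7.75 on the other 6 arrays. Only Tnnc2, the fast skeletal troponin C, was at an unadjusted p under 0.05, with 8.55, 10.24, 7.46, 7.72 and 8.30 in the p19Arf group against 7.22 to 7.91 in the eGFP group. Its difference was 0.97 (SE 0.45), 0.52 without p19Arf replicate 2, 0.62 without replicates 2 and 4 and 0.44 with array weights. The part of muscle RNA in the other differences was not tested. Skin keratinocyte genes were high on eGFP replicate 5 (7.21 against 6.54 to 6.70 on the other eGFP arrays). The basal keratins Krt5 and Krt14 differed by -0.51 (SE 0.40) and -0.40 (SE 0.28), and by -0.29 and -0.22 without that array and -0.86 and -0.75 spread-adjusted. Among peripheral nerve genes the myelin protein Pmp22 differed by -0.63 (SE 0.19; spread-adjusted -0.39, without replicates 2 and 4 -0.34) and the adhesion molecule Ncam1 by -0.27 (SE 0.09; -0.15 with array weights), and 3 of 7 had a higher mean.

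Metabolic and stress lists had medians below 0, each of which turned positive with the spread covariate. Among the 25% of genes with the highest means, 25.4% had a higher mean and the median was -0.11, so nothing is read from these signs. Respiratory chain genes had a higher mean in 11 of 24 and a median of -0.03 (0.10 spread-adjusted), with Ndufa4 at 0.37 (SE 0.14). Genes of the ER and integrated stress responses had a higher mean in 9 of 22 and a median of -0.03 (0.04 spread-adjusted), with the pseudokinase Trib3 at 0.31 (SE 0.13; 0.17 without p19Arf replicate 2, 0.20 with array weights, 0.12 without replicates 2 and 4). Flavin and one-carbon enzymes had lower means in 8 of 10, a median of -0.10 that was 0.09 spread-adjusted. Rfk, the riboflavin kinase that makes flavin mononucleotide, read 9.87, 10.38, 10.11, 10.39 and 10.17 in the eGFP group and 9.75, 9.49, 9.56, 9.18 and 9.79 in the p19Arf group. The groups did not overlap, and the difference was -0.63 (SE 0.16, unadjusted p = 0.000757; spread-adjusted -0.38). Shmt2, the mitochondrial serine hydroxymethyltransferase, differed by -0.35 (SE 0.14; spread-adjusted -0.23).

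The 24 genes of smallest unadjusted p, 12 in each direction and leaving out the families that the methods name, stood outside the lists except for Cpa3 and Rfk. On the higher side stood Scarna8, a Cajal body RNA, at 0.71 (spread-adjusted 0.45, without replicates 2 and 4 0.40), Ifnz, an interferon zeta gene, at 0.67 (spread-adjusted 0.36, 0.43 without p19Arf replicate 4, where it read 9.86 against 8.32 to 8.87), and Sec61b, a subunit of the ER translocon, at 0.55. Sec61b read 9.84, 9.37, 9.80, 9.82 and 9.24 against 10.29, 10.22, 10.15, 10.43 and 9.72. All p19Arf arrays but replicate 5 exceeded all eGFP arrays, and its other 2 probe sets differed by 0.41 and 0.42. The others were Zfy2 at 0.40, the calpain Capn6 at 0.38, the protocadherin Pcdhb3 at 0.36, Smok2b at 0.32, the deiodinase Dio3 at 0.31, Apon at 0.31, the ubiquitin-conjugating Ube2g2 at 0.31, the ubiquitin ligase Rnf121 at 0.24 and Smim9 at 0.24. Of these, Zfy2, Capn6, Pcdhb3, Dio3, Apon and Smim9 lay in the lowest 25% of genes by level, where 79.9% had a higher mean. With array weights Zfy2 was at 0.14, and without replicates 2 and 4 it was at 0.23 and Smok2b at 0.20.

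On the lower side, besides Cpa3, Vsig4 and Rfk, stood the sulfotransferase Chst2 at -0.63 (-0.28 with array weights). Fbxo31, an F-box protein, was at -0.50 on the probe set used and at -0.08 on its other one. Vps72, a subunit of histone exchange complexes, was at -0.45, and Spry4, a feedback inhibitor of receptor tyrosine kinase signalling, at -0.45. Ifi207, of the Ifi200 family, was at -0.42, Bmyc at -0.38 (-0.24 with array weights), Mospd3 at -0.35 and Asap1 at -0.34 (-0.21 without replicates 2 and 4). Spry4 read 9.56, 10.10, 9.76, 9.98 and 9.88 against 9.57, 9.14, 9.51, 9.25 and 9.58, so 3 p19Arf arrays lay below all eGFP arrays and replicates 1 and 5 just above the lowest. Of the 24, 9 did not overlap between groups, 3 higher and 6 lower, against 0.251% and 0.441% of all genes; since the 24 were chosen by their p in this contrast, nothing is read from that share.

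Families of short or silent genes lay on the higher side. Olfactory receptor genes, which are expressed in the nasal epithelium, had a higher mean in 969 of 1027, with a median of 0.17 that was 0.07 spread-adjusted and 0.06 to 0.23 with 1 array left out. At an unadjusted p under 0.05, 153 of them were higher and 0 lower, against 2.84% and 4.4% of all genes and against 322 and 20 of the 4985 genes in the lowest 25% by level. Vomeronasal receptor genes had a higher mean in 150 of 167. These genes lie at low values, where most genes had higher means. H/ACA small nucleolar RNAs, which guide pseudouridylation of ribosomal RNA, had a higher mean in all 20 and 10 at an unadjusted p under 0.05, and their probe sets do not lie at low values. Their mean level was 10.20, 9.67, 9.67, 9.94 and 9.52 on the eGFP arrays and 10.22, 11.15, 10.14, 10.65 and 9.96 on the p19Arf arrays. The median of 0.62 was 0.24 spread-adjusted and 0.27 without replicates 2 and 4. C/D small nucleolar RNAs, which guide ribose methylation, had a higher mean in 27 of 31 with a median of 0.25 (0.09 spread-adjusted), and microRNA genes in 224 of 300 with a median of 0.08 (-0.02 spread-adjusted).

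A second comparison was made in tumors that had received the IFNbeta vector, as the combination minus IFNbeta. It shares no array with the comparison above. The labels do not say whether the load in the combination group was per vector or in total. A different dose of the IFNbeta vector or of total virus therefore cannot be told apart from p19Arf in this comparison. There too 0 genes passed adjustment (0%, smallest adjusted p 0.0575), while 5147 (25.8%) were at an unadjusted p under 0.05, 2352 higher (11.8%) and 2795 lower (14%). In this second comparison 57.1% of genes had a higher mean, and no split by level was made. Array spread was 2.11, 2.12, 2.06, 1.99 and 2.02 on the combination arrays and 2.12, 2.13, 2.04, 2.13 and 2.15 on the IFNbeta arrays. The lowest spread was thus again on an array from the tumors given p19Arf. The part of array spread in the shared signs below was not tested. Of the 567 genes higher with p19Arf alone, 520 (91.7%) had the same sign in the second comparison, and 150 were at an unadjusted p under 0.05 in both, 26.5% of the first list and 6.38% of the second. Of the 878 lower genes, 853 (97.2%) had the same sign and 538 were at the threshold in both, 61.3% of the first list and 19.3% of the second. The test of the difference between the comparisons, the interaction, passed 0 genes (0%, smallest adjusted p 1) and held 260 genes (1.3%) at an unadjusted p under 0.05.

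All 24 leading genes had the same sign in the second comparison, 11 of them at an unadjusted p under 0.05, against 25.8% of all genes. A smaller difference was seen there in 23, the exception being Capn6 (0.45 against 0.38). Genes chosen by a small p in 1 comparison tend to differ less in another, so nothing is read from that count. Cpa3 differed by -0.68 (SE 0.26) with IFNbeta present against -1.07 without, Cdh5 by -0.43 against -0.58, Emcn by -0.52 against -0.54 and Spry4 by -0.43 against -0.45. Gzmc differed by -0.21 against -0.68, Vegfb by -0.05 against -0.25, Cxcl10 by -0.02 against -0.45 and Vsig4 by -0.21 against -0.75, but the interaction did not reach an unadjusted p of 0.05 in any of these 4 genes. It did in Fbxo31 (0.46, unadjusted p = 0.025), Mospd3 (0.29, unadjusted p = 0.0393) and Mcpt2 (-0.66, unadjusted p = 0.0229), each with an adjusted p of 1. Zmat3 differed by 0.03 and Mdm2 by -0.08 in the second comparison, against 0.26 and 0.17, with unadjusted interaction p-values of 0.146 and 0.113 in limma. Siva1 differed by 0.33 against 0.30. Endothelial genes had a median of 0.04 with 15 of 27 higher in the second comparison, against -0.07 and 7 of 27, and type I interferon response genes a median of -0.33 with 1 of 29 higher, against -0.03 and 8 of 29. Skeletal muscle genes had a median of -0.04 there against 0.45.

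**Figure D5:**
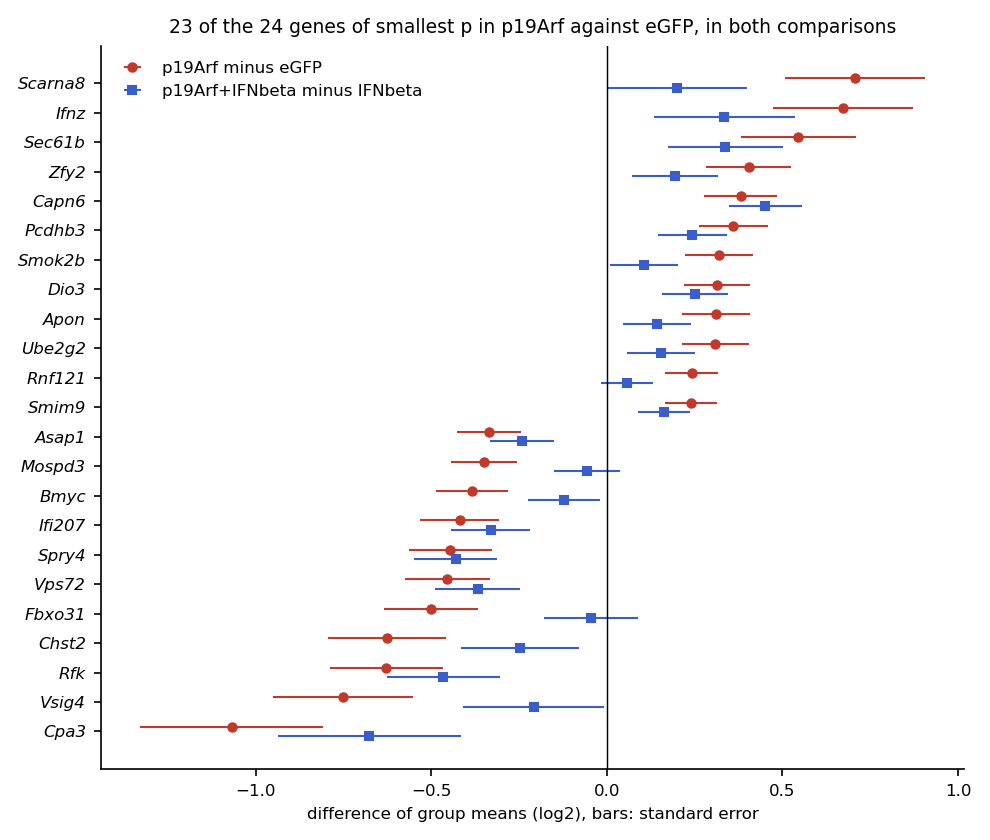
Difference of group means (log2, with standard errors) of 23 of the 24 leading genes for p19Arf minus eGFP (red circles) and for the combination minus IFNbeta (blue squares), which use separate arrays. The red values chose the genes; each blue value lies on the same side of 0 as its red one, and Capn6 is the 1 gene in which it lies farther out.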

How the data were processed

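RNA from whole tumors was extracted with Trizol and hybridised as biotin-labelled cRNA to Affymetrix arrays of 1 colour (labels' protocols). The deposited table holds log2 expression values of 35556 probe sets on 20 arrays, from 2.33 to 14.69, summarised and normalized by the authors before deposit. Base 2 was inferred from this range. The submitters' processing notes name Affymetrix Expression Console and GCOS, and the sources used here do not give the summarisation method. No detection call comes with the values, and the number of arrays limits the precision.

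Gene names came from the platform annotation, updated to GRCm38.p6 names: 21789 had 1 symbol, 1621 several and 12146 none here. Of several probe sets with 1 symbol, that of highest mean across the 20 arrays was used, which gave 19938 genes without a filter on low values. A group-means model of the 20 arrays was fitted with limma 3.58.1 in R 4.3.3 and moderated with eBayes (16 residual and 6.06 prior degrees of freedom), 2-sided, with Benjamini-Hochberg adjustment within each contrast over all genes, and tested on simulated data. The interaction is the combination minus IFNbeta less p19Arf minus eGFP. Single values were compared with exact permutation tests in SciPy 1.17.1.

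The 37 gene lists (690 of 748 members measured, 7 to 33 each) are described by counts, medians and mean levels per array, and were not tested. The named genes were the vector genes and Mdm2, the 12 genes of smallest unadjusted p in each direction, since none passed, leaving out genes named Olfr, Vmn, Mir, Snora, Snord, n-R5s, Gm, Rik or LOC, and of each list up to 4 members at an unadjusted p under 0.05 or, where none, the 2 of smallest p. The comparison and the lists were chosen with earlier results of these data known. Alternatives covered weights, moderation, normalization, the array spread, low genes, probe sets, the replicate number and each array left out. Upstream sequences came from a RefSeq table of GRCm38.p6. Windows for Cdh5, Zmat3 and Lyve1 are not shown, and 1 of the 24 genes is not reported here.

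Title numbers did not pair the arrays: the deviations of same-numbered arrays correlated from -0.62 to 0.23, and 1 of 5 p19Arf arrays correlated best with its own number.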

Additional observations from a re-analysis of the deposited data

Results flagged for a closer look

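The values below stood apart from the other 4 arrays of their group by more of the group's range than the 95% limit of Dixon's test allows. In all, 23 of 314 groups of 5 values did so (7.33%), where chance gives about 1 in 20, and 9 of the 23 were on eGFP replicate 1 and 5 on p19Arf replicate 2. No explanation was weighed.

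On eGFP replicate 1 the low values were Nolc1 at 9.46 (the others 9.89 to 10.06), Mmp9 at 11.75 (12.22 to 12.33), Tcf4 at 9.88 (10.38 to 10.53), Fscn1 at 10.07 (10.53 to 10.70), Fn1 at 12.77 (13.04 to 13.15), Dcn at 11.22 (12.25 to 12.38) and Pmp22 at 10 (10.65 to 10.87). The high values there were Siva1 at 8.68 (8.32 to 8.42) and Cdc6 at 8.16 (7.72 to 7.84). In each of these 9 genes that array lay on the side of the p19Arf mean.

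Other eGFP arrays stood apart in Zfy2 at 3.88 (replicate 3), Vsig4 at 6.69 (replicate 2), the mean of the Arf, Mdm2 and p53 core at 9.26 (replicate 2) and the skin epidermis mean at 7.21 (replicate 5).

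On p19Arf replicate 2 the values were Smim9 at 5.64 (5.38 to 5.46), Zmat3 at 9.9 (9.31 to 9.48), Trp53i11 at 8.96 (9.50 to 9.55), Nlrc5 at 11.85 (10.93 to 11.15) and the C/D small nucleolar RNA mean at 10.01 (9.17 to 9.39). Other p19Arf arrays stood apart in Trp73 at 6.95 (replicate 1), Ncr1 at 6.2 (replicate 3), Bcl2 at 10.39 (replicate 4), the B and plasma cell mean at 8.21 (replicate 3) and the microRNA mean at 6.46 (replicate 4).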

How the results depend on the processing

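No gene passed adjustment in p19Arf against eGFP under any setting run, nor in the interaction. Genes at an unadjusted p under 0.05 numbered 1445 (567 higher, 878 lower, 60.8% of them lower). They were 3722 with array weights (1810 and 1912), 894 when array spread was a covariate (504 and 390, 43.6% lower), 2572 over all probe sets (1192 and 1380) and 342 without p19Arf replicates 2 and 4 (159 and 183); the last 2 settings were chosen after seeing the data. Without the 25% lowest genes 244 were higher and 837 lower, and after median centring 367 and 1011 (73.4% lower). With 1 array left out the total ran from 667 (without eGFP replicate 2) to 2682 (without eGFP replicate 1), the higher from 303 (without eGFP replicate 4) to 1150 (without p19Arf replicate 1) and the lower from 340 to 1877 (without eGFP replicates 2 and 1); without eGFP replicate 4, p19Arf replicate 1 and p19Arf replicate 4 the totals were 806, 2670 and 929. The cause was not tested. With the replicate number as a block, which does not pair these arrays, 1237 genes were at that threshold (513 higher, 724 lower) and 0 passed adjustment.

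In the combination against IFNbeta, 0 genes passed, 1730 with array weights, and 1 each without the lowest 25%, after median centring, and without p19Arf replicates 2 and 4; leaving out 1 array of the first comparison gave 0 to 1. Of 2171 values of 104 named genes under the alternatives, 1 changed sign, Bmi1 at 0.083 without p19Arf replicates 2 and 4, and 18 of 1112 list medians moved by more than the spread between arrays.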

Other observations

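Among the 88 genes in which every p19Arf array lay below every eGFP array were immune regulators not described above, chosen here after their values were seen. Rel, an NF-kB subunit of lymphoid and myeloid cells, read 9.11, 9.28, 9.11, 9.26 and 9.17 on the eGFP arrays and 8.97, 8.86, 9.08, 8.40 and 8.66 on the p19Arf arrays, a difference of -0.39 (SE 0.12), with -0.45 in the combination against IFNbeta. Il33, an alarmin cytokine that also acts on mast cells, differed by -0.34 (SE 0.14) and by -0.22 in the second comparison. Trem1, a receptor of neutrophils and monocytes, differed by -0.35 (SE 0.21) and by -0.03, and Tgfb1 by -0.29 (SE 0.17) and by -0.28. The last 2 genes did not overlap between groups but were not at an unadjusted p under 0.05 in the fit across all arrays.

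Other non-overlapping genes in the lower direction were Etv6, an ETS repressor, at -0.36 (SE 0.11), the metallothionein Mt2 at -0.38 (SE 0.12), the proprotein convertase Furin at -0.25 (SE 0.10), the base excision repair nuclease Apex1 at -0.31 (SE 0.11) and Zic2 at -0.50 (SE 0.17). In the opposite direction 15 of the 50 non-overlapping genes were olfactory receptors, a family with 1027 of the 19938 genes. It lies at low values, where most genes had higher means. None of the 665 list genes was among these 50, which are 0.251% of all genes, and 8 were among the 88, which are 0.441%.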
